A study of Mus musculus with 12 samples.

Results

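The ubiquitin-specific proteases (Usp genes, without Usp18), the OTU deubiquitinases named Otub or Otud, the ubiquitin C-terminal hydrolases Uchl1, Uchl3 and Uchl5, Bap1 and Cyld were followed through LPS stimulation of peritoneal exudate cells (PECs). Members were picked by gene symbol, with earlier results of these data known, which gave 54 of the 12850 listed genes. All 54 passed the filter on low values of at least 1 CPM (a read count scaled to the size of its library) in at least 2 libraries. PECs were collected from C57BL/6 mice 3.5 days after injection of thioglycollate, a sterile irritant, then cultured and stimulated with LPS at 100 ng/ml for 4 or 8 hr or left at 0 hr. The mice were WT or carried Zc3h12a S513A/S513A (S513A), a knock-in made by CRISPR/Cas9 that replaces 1 residue of the RNA-degrading enzyme Regnase-1 in all cells of the animal. PolyA RNA was sequenced from 2 libraries of each genotype at each time point, 12 libraries in 6 groups. The labels do not say whether replicates came from separate mice, so p values measure the spread between these libraries, which may be technical.

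Deubiquitinases remove ubiquitin from proteins or cut ubiquitin chains, and so undo the work of ubiquitin ligases. Toll-like receptor 4, the receptor of LPS, signals through ubiquitin chains that adaptors and ligases such as TRAF6 build, and deubiquitinases such as CYLD take these chains apart. Other members of the families act on histones, on DNA repair proteins, at the proteasome or on endosomes and mitochondria, and a few are held to lack catalytic activity.

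Each library held 9525979 to 12439960 reads on listed genes, with a median of 11137241, and members took between 8 reads (Usp2) and 3593 reads (Usp25) in a library. All 6 macrophage markers were listed, with summed levels of 16066 to 26293 CPM over the libraries. Of the neutrophil markers 2 of 7 had values, summing to 20.3 to 54.2 CPM at 0 hr, 45.4 to 108 CPM at 4 hr and 33.5 to 102 CPM at 8 hr, and eosinophil markers (2 of 5) went from 15.3 to 18.5 CPM at 0 hr to 3.62 to 4.58 CPM at 8 hr. B cell markers (5 of 5) summed to 10.1 to 16.0 CPM at 0 hr, 19.2 to 22.1 CPM at 4 hr and 14.5 to 25.9 CPM at 8 hr, T cell markers (1 of 5) to 0.523 to 2.16 CPM, mast cell markers (3 of 4) to 1.45 to 3.20 CPM and mesothelial markers (4 of 5) to 0.581 to 3.07 CPM. The part of these cells in the results below was not tested, and in bulk samples fewer cells of a type and less RNA per cell cannot be told apart. The 2 WT libraries at 4 hr stood furthest apart, with a standard deviation of their difference over members of 0.35 log2 units against 0.20 to 0.28 in the other groups, and replicate 2 read higher than replicate 1 by a median of 0.21. Over the 54 members this gap went with transcript length (Pearson r = 0.45 with log2 exon length), as did the smaller gap in WT at 0 hr (r = 0.45). In S513A the sign was opposite, with r = -0.33 after 4 hr, -0.25 after 8 hr and -0.10 in unstimulated cells, and the WT pair at 8 hr gave r = 0.06. These correlations are across genes within a pair of libraries, and genes are not independent replicates.

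Promoter windows are shown for 5 members that are described in the results below. Usp25 and Usp12 were the most strongly raised members of the signalling and traffic groups. The others are the NF-kappaB regulator Cyld, the stress granule protein gene Usp10 and the lowered Usp2. No result below rests on the windows, and a part of their letters in the changes was not tested. Each window runs from 250 bases before to 50 after a RefSeq transcript start, in GRCm38.p6, written 5′ to 3′ on the strand of the gene. In Usp12 and Usp2 the capitals mark GC boxes (GGGCGG on either strand), and Usp25, searched for the same letters, has no capitals. In Cyld they mark a match to GGGANTTNCC, an NF-kappaB-like motif, read on the opposite strand, and in Usp10 a match to TGANTCA, an AP-1 motif.
Usp25 (chr16:77013819-77014118, plus strand): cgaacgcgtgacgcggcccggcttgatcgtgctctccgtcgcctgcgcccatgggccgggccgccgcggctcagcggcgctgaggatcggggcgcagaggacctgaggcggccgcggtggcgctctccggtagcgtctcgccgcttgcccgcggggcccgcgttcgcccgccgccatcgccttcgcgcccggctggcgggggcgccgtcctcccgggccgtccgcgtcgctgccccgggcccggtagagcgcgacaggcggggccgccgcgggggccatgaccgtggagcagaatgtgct
Usp12 (chr5:146794907-146795206, minus strand): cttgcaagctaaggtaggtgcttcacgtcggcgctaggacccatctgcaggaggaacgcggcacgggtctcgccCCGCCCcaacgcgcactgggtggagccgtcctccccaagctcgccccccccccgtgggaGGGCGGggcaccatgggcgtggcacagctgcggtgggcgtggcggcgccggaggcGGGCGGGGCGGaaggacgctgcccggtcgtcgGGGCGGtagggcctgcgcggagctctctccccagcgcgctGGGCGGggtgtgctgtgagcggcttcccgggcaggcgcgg
Cyld (chr8:88696778-88697077, plus strand): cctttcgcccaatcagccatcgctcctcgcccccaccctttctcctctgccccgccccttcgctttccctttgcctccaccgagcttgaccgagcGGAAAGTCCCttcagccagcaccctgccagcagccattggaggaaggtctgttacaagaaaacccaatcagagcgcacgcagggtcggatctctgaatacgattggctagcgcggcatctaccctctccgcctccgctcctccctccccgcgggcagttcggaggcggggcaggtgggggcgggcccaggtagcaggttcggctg
Usp10 (chr8:119910110-119910409, plus strand): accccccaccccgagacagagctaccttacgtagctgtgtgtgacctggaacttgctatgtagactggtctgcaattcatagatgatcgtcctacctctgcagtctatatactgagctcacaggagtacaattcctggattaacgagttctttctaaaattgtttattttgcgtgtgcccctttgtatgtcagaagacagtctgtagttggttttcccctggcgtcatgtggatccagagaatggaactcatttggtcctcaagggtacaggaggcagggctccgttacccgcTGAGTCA
Usp2 (chr9:44084670-44084969, plus strand): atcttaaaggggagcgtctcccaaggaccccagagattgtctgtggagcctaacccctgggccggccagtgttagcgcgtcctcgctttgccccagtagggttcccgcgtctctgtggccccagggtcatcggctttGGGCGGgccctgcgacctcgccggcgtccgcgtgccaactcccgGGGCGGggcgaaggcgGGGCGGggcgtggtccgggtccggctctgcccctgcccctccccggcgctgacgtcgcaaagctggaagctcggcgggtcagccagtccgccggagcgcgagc
The Usp12 window held 6 GC boxes, some of them overlapping, and the Usp2 window 3. The Cyld window held 2, left in small letters above. No GC box was found in that of Usp25, although 79.0% of its bases were G or C. Windows were at hand for 43 members, 46 windows in all. A member is counted below if any of its windows held the motif. The shares over all are of single windows, so the units differ. A GC box stood in a window of 32 of the 43 members and in 35.7% of all 32851 windows, and the GC share had a median of 64.8% over member windows and 52.7% over all. The NF-kappaB-like motif was found in 1 member, Cyld, 155 bases before the start, and in 1.20% of all windows. AP-1 letters stood in 4 members, Otub2, Usp10, Usp31 and Usp38, and in 7.81% of all windows, with that of Usp10 beginning 43 bases after the start. An interferon response element (GAAANNGAAA) was found in Usp49 and in 3.44% of all windows, and an E-box (CACGTG) in 7 members and in 7.15% of all. Both strands were searched, and a match is a run of letters, not a bound site.

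In unstimulated cells the levels of the members, as mean log2 CPM per kb of exon, reached from -1.37 for Usp49, a histone H2B deubiquitinase, to 4.83 for Usp8, which acts on endosomal cargo. Next to Usp8 stood Usp5 at 4.77, which takes apart free ubiquitin chains, Otub1 at 4.55, which also blocks the ubiquitin-conjugating enzyme UBC13, and Usp25 at 4.46. At the lower end, Usp53 lay at -1.07, Usp27x at -0.97, Otub2 at -0.88 and Usp2 at -0.74. After LPS Usp25 held the highest level of all members, 5.88 at 4 hr and 5.71 at 8 hr on this scale, and Usp12 passed from the 7th place at 0 hr to the 2nd at 4 hr and the 5th at 8 hr. Summed over the 54 members, the level was 2270 to 2385 CPM in the 4 libraries at 0 hr, 2826 to 3355 CPM at 4 hr and 2567 to 2965 CPM at 8 hr. The 4 unstimulated libraries lay below the other 8.

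The effect of LPS was asked first, over both genotypes, comparing 4 libraries at 4 hr with 4 at 0 hr. Of the 54 members 23 rose and 6 fell (limma, Benjamini-Hochberg adjusted p under 0.05 over 11885 genes), led upward by Usp25, Usp53 and Usp12 and downward by Usp2, Usp35 and Usp20. The 29 called members were 53.7% of the family, against 55.8% of all genes tested. The members that rose were 42.6% of the family against 29.1% of all genes, and those that fell 11.1% against 26.7%. The median log2 fold change was 0.17 over the members and 0.02 over all genes. With quantile normalization the split became 15 higher and 9 lower, or 62.5% higher among the called in place of 79.3%. The 4 libraries at 4 hr lay above all 4 at 0 hr for 18 members (33.3%, all genes 25.7%) and below them for 6 (11.1%, all genes 23.4%).

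At 8 hr 15 members were higher and 2 lower than at 0 hr in the same test. These 17 members were 31.5% of the family, below the 46.1% of all genes tested, with 27.8% higher against 24.5% and 3.70% lower against 21.6%. The median log2 fold change was 0.08 over the members. With quantile normalization 14 were higher and 4 lower, and the higher share of the called went from 88.2% to 77.8%. At both times 14 members were higher, namely Cyld, Otud4, Otud5, Usp1, Usp3, Usp10, Usp12, Usp16, Usp25, Usp36, Usp40, Usp42, Usp47 and Usp53, and Otud7b and Usp2 were lower at both. These are 25.9% and 3.70% of the family, against 20.6% and 17.6% of all genes. Neither time gave a call for 24 members (44.4%, all genes 36.9%).

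**Figure D1:**
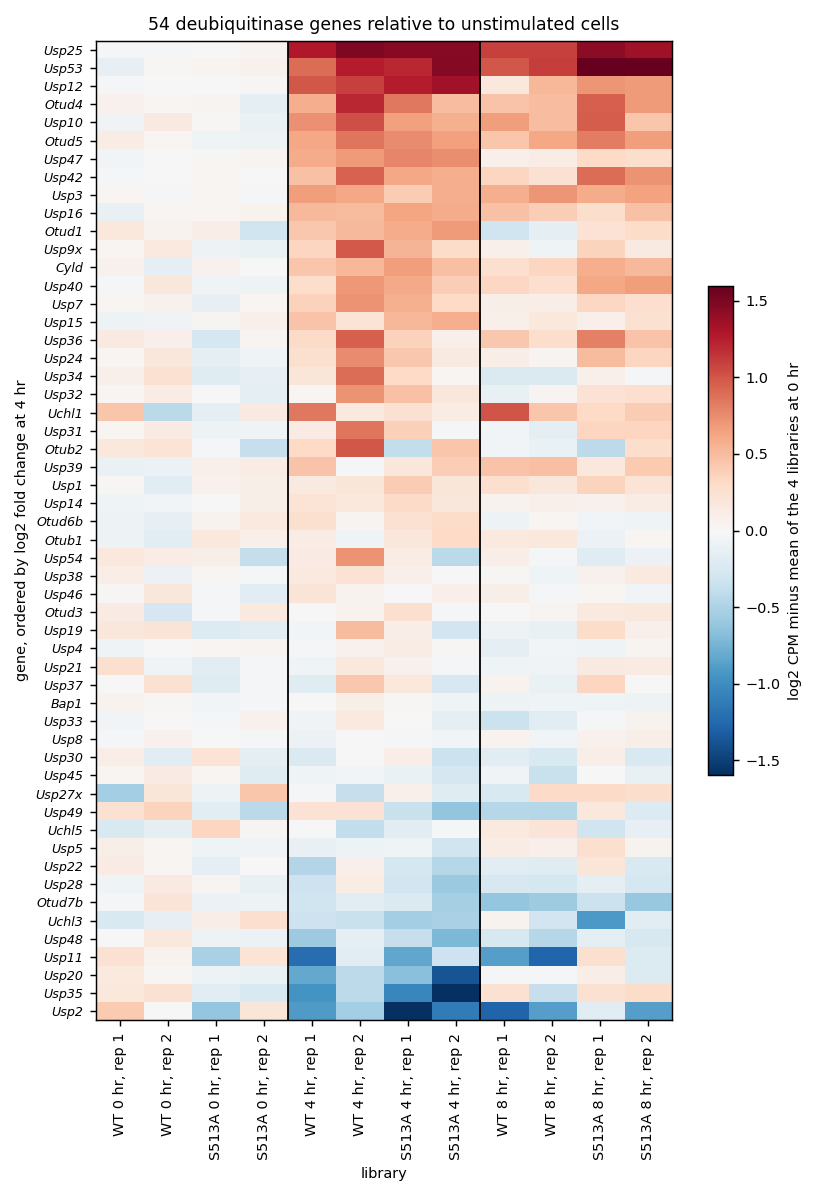
Log2 CPM of the 54 members (rows, ordered by the change at 4 hr) in the 12 libraries (columns, by time and genotype), minus the mean of the 4 libraries at 0 hr, so that red is higher and blue lower than unstimulated cells, with colours ending at 1.6 in either direction. Usp25, Usp53 and Usp12 at the top are red in all 8 stimulated libraries, and Usp35 and Usp20 near the bottom are blue at 4 hr and paler at 8 hr.

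Among the 15 members that act on immune adaptors and signalling proteins, 6 rose at 4 hr (Usp25, Otud4, Otud5, Otud1, Cyld and Usp15) and 2 fell (Usp2 and Otud7b), or 53.3% called. This share and those of the smaller groups that follow stand beside 55.8% of all genes called at 4 hr, 29.1% higher and 26.7% lower, and the groups were not tested against other genes. Usp25 takes ubiquitin from TRAF proteins of Toll-like and IL-17 receptor signalling, and lies on chromosome 16 (77013706 to 77116780, plus strand, GRCm38). Where 4 values are given for a time, here and below, WT replicates 1 and 2 come before S513A replicates 1 and 2. The log2 CPM of Usp25 at 0 hr was 6.82 and 6.82 in the WT libraries and 6.84 and 6.88 in the S513A libraries. At 4 hr it was 8.13 and 8.33 in WT and 8.30 and 8.29 in S513A. At 8 hr it was 7.94 and 7.93 in WT and 8.28 and 8.19 in S513A. All 8 stimulated libraries lay above all 4 unstimulated ones, by a gap far wider than the spread within a time. The log2 fold change of Usp25 was 1.42 ± 0.07 (SE, 4 libraries against 4) at 4 hr (limma, adjusted p = 2.99e-08) and 1.24 ± 0.07 after 8 hr (adjusted p = 1.14e-07).

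Otud4 and Otud5 belong to the OTU family and are known from innate signalling, Otud5 for removing ubiquitin chains from TRAF3. Otud5 stood at 5.99 and 5.90 (WT) and 5.81 and 5.79 (S513A) log2 CPM at 0 hr. It reached 6.49 and 6.73 (WT) and 6.62 and 6.53 (S513A) at 4 hr and 6.32, 6.49 (WT), 6.69 and 6.54 (S513A) at 8 hr. Every stimulated library lay above every unstimulated one. Its log2 fold change was 0.72 ± 0.08 at 4 hr (limma, adjusted p = 2.43e-05) and 0.64 ± 0.08 after 8 hr (adjusted p = 8.42e-05). Otud4 was at 6.06, 6.02, 6.03 and 5.84 at 0 hr. It was at 6.57, 7.19, 6.82 and 6.47 at 4 hr, and at 6.44, 6.48, 6.94 and 6.67 at 8 hr. WT replicate 2 at 4 hr was the highest of these, and the groups did not overlap with 0 hr. Otud4 changed by 0.78 ± 0.14 at 4 hr (limma, adjusted p = 0.000613) and 0.65 ± 0.14 after 8 hr (adjusted p = 0.00268).

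Cyld, which cleaves lysine-63-linked and linear chains and restrains NF-kappaB, carried the NF-kappaB-like letters shown above. Its log2 CPM was 5.68, 5.46, 5.68 and 5.62 at 0 hr. It was 6.05, 6.13, 6.27 and 6.09 after 4 hr of LPS and 5.87, 5.95, 6.19 and 6.12 after 8 hr, all above the 0 hr libraries. The log2 fold change of Cyld was 0.53 ± 0.08 at 4 hr (limma, adjusted p = 0.0002) and 0.42 ± 0.08 after 8 hr (adjusted p = 0.00127). Otud1 rose by 0.56 at 4 hr (limma, adjusted p = 0.0018) and was at 0.01 at 8 hr, not called. That mean joins opposite directions, from 3.26 at 0 hr to 2.91 log2 CPM at 8 hr in WT and from 3.04 to 3.41 in S513A. The difference between genotypes in this response had an unadjusted p under 0.05 (limma) but was not called. Usp15 rose by 0.45 at 4 hr (limma, adjusted p = 0.000608) and was at 0.14 at 8 hr, not called.

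Usp2, known for acting on cyclin D1 and for its circadian expression, was the least abundant of the called members, with 8 to 55 reads a library. It lies on chromosome 9 (44067021 to 44095627, plus strand) and its exons overlap those of the gene model Gm49380, which unstranded counting does not separate. Its log2 CPM was 1.95, 1.53, 0.92 and 1.73 at 0 hr, 0.62, 0.98, -0.26 and 0.42 after 4 hr of LPS and 0.25, 0.65, 1.35 and 0.65 after 8 hr. The highest value at 4 hr (WT replicate 2) and the highest at 8 hr (S513A replicate 1) lay above the lowest at 0 hr, so the groups overlapped. The log2 fold change was -1.09 ± 0.28 at 4 hr (limma, adjusted p = 0.00621) and -0.81 ± 0.28 after 8 hr (adjusted p = 0.0344), and the call at 8 hr was lost with quantile normalization (adjusted p = 0.0745). Otud7b, also called Cezanne and known for acting on TRAF3, fell by 0.32 at 4 hr (limma, adjusted p = 0.0218) and by 0.53 after 8 hr (adjusted p = 0.00145). The other members of this group, Otub1, Otub2, Otud3, Usp4, Usp27x, Usp31 and Usp38, were not called at either time, with log2 fold changes of -0.13 to 0.34 at 4 hr.

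**Figure D2:**
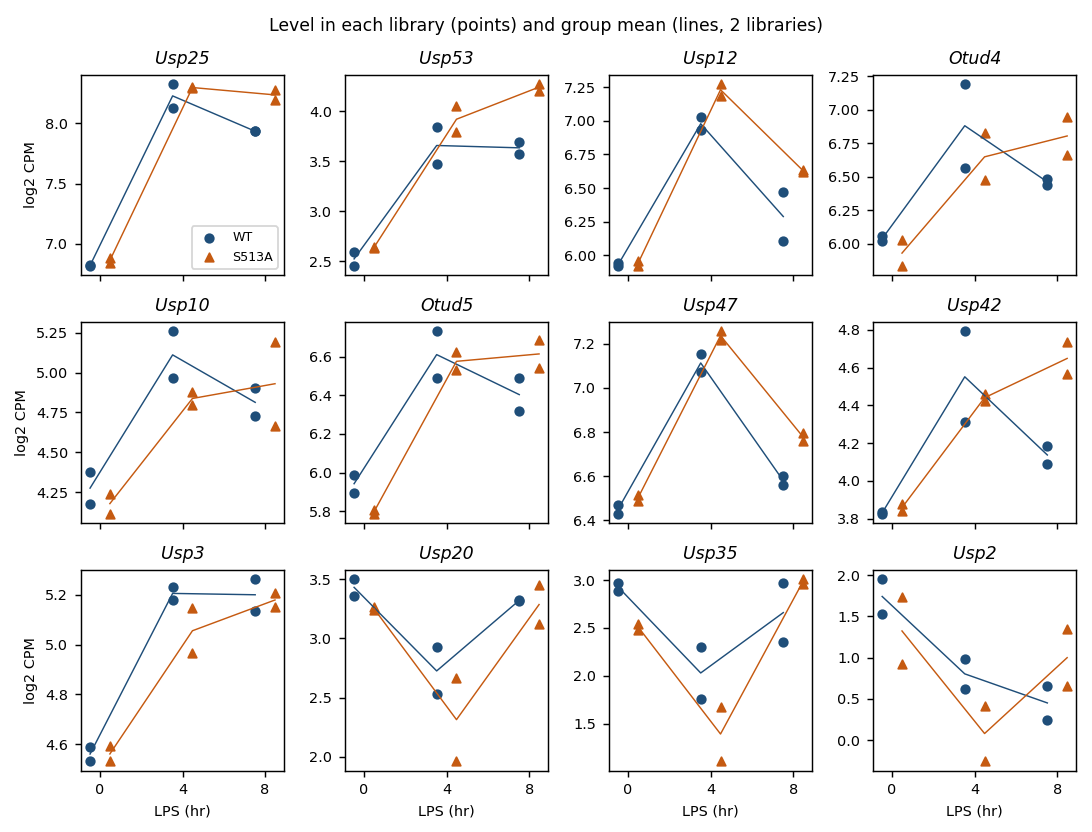
Log2 CPM in each library (points, circles for WT and triangles for S513A) at 0, 4 and 8 hr of LPS for the 12 members with a called change of at least 1.5-fold, with lines through the group means of 2 libraries; each panel has its own vertical range, which does not start at 0. Usp25 and Usp53 stayed high at 8 hr, Usp12 and Usp47 were highest at 4 hr, and Usp20 and Usp35 were lowest at 4 hr.

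Of the 10 members that act on histones and transcription, 5 rose at 4 hr (Usp42, Usp3, Usp16, Usp7 and Usp36) and 0 fell, so that 50% were called, against 55.8% of all genes. On the lower side 1 member, Usp11, had an unadjusted p under 0.05, at -0.64 on the log2 scale (adjusted p = 0.0676 in limma). Voom weights left the counts at 5 and 0, and quantile normalization gave 4 higher and 1 lower, Usp22. Usp42, which acts on p53 and histone H2B, stood at 3.83, 3.84, 3.88 and 3.84 log2 CPM at 0 hr, 4.31, 4.79, 4.46 and 4.42 after 4 hr of LPS and 4.18, 4.09, 4.73 and 4.56 after 8 hr. The 4 unstimulated libraries were almost equal and lay below all others, with changes of 0.65 ± 0.11 at 4 hr (limma, adjusted p = 0.000438) and 0.55 ± 0.11 after 8 hr (adjusted p = 0.00181). Usp3, a histone H2A deubiquitinase, read 4.59, 4.53, 4.59 and 4.53 at 0 hr, 5.23, 5.18, 4.97 and 5.14 after 4 hr of LPS and 5.14, 5.26, 5.15 and 5.21 after 8 hr. It too did not overlap with 0 hr, and changed by 0.57 ± 0.08 at 4 hr (limma, adjusted p = 9.55e-05) and 0.63 ± 0.08 after 8 hr (adjusted p = 6.01e-05).

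Usp16, which also acts on histone H2A, rose by 0.56 at 4 hr and by 0.40 after 8 hr (limma, adjusted p = 8.19e-05 and 0.00127), and its exons overlap those of Cct8. Usp7, a deubiquitinase of MDM2 and p53, rose by 0.49 at 4 hr (adjusted p = 0.00105 with limma) and was at 0.20 at 8 hr. Usp36, a nucleolar member, rose by 0.43 and 0.50 (limma, adjusted p = 0.0345 and 0.0213). The histone H2A deubiquitinase gene Bap1 was at 0.01 at 4 hr (95% confidence interval -0.14 to 0.16) and -0.08 at 8 hr (-0.23 to 0.07), and Usp22, the deubiquitinase of the SAGA coactivator, at -0.28 and -0.10, none of them called.

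Of the 8 members tied to DNA damage and the cell cycle, Usp10, Usp47, Usp24 and Usp1 rose at 4 hr and Usp48 fell. Usp10, which binds G3BP proteins of stress granules and acts on p53, was at 4.18, 4.37, 4.24 and 4.11 log2 CPM at 0 hr, 4.96, 5.26, 4.88 and 4.80 after 4 hr of LPS and 4.90, 4.73, 5.19 and 4.67 after 8 hr. All stimulated libraries were above all unstimulated ones, with changes of 0.75 ± 0.12 at 4 hr (limma, adjusted p = 0.000442) and 0.65 ± 0.12 after 8 hr (adjusted p = 0.00156). Exons of the gene model Gm20388 overlap this gene. Usp47, a relative of Usp7 that acts on DNA polymerase beta, was at 6.43, 6.47, 6.49 and 6.51 at 0 hr, 7.07, 7.15, 7.26 and 7.22 after 4 hr of LPS and 6.56, 6.60, 6.80 and 6.76 after 8 hr. The 3 times did not overlap, and Usp47 changed by 0.70 ± 0.06 at 4 hr (limma, adjusted p = 3.81e-06) and 0.20 ± 0.06 after 8 hr (adjusted p = 0.0221), the latter at 0.02 with quantile normalization (adjusted p = 0.794). Usp24 rose by 0.40 and Usp1, the partner of UAF1 in the Fanconi pathway, by 0.23 at 4 hr (limma, adjusted p = 0.0122 and 0.0339). Usp48, which acts on histone H2A and in NF-kappaB signalling, fell by 0.45 at 4 hr (limma, adjusted p = 0.00588) and was at -0.28 after 8 hr (adjusted p = 0.0691).

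Of the 9 members placed in membrane traffic and organelles, Usp12, Usp9x and Usp32 rose at 4 hr and Usp20 fell. Usp12, which works with UAF1 and WDR20, lies on chromosome 5 (146734809 to 146795006, minus strand). It was at 5.92, 5.94, 5.92 and 5.96 log2 CPM at 0 hr, 6.93, 7.03, 7.19 and 7.28 after 4 hr of LPS and 6.11, 6.47, 6.64 and 6.62 after 8 hr, so that the 3 times did not overlap. Its log2 fold change was 1.17 ± 0.09 at 4 hr (limma, adjusted p = 6.77e-07) and 0.52 ± 0.09 after 8 hr (adjusted p = 0.000457). Usp20, known for acting on beta-adrenergic receptors, HIF-1alpha and TRAF6, lies on chromosome 2 (30982279 to 31023586, plus strand). It was at 3.50, 3.36, 3.26 and 3.24 at 0 hr, 2.53, 2.92, 2.67 and 1.96 after 4 hr of LPS and 3.32, 3.32, 3.45 and 3.12 after 8 hr. All 4 libraries at 4 hr lay below those of both other times, with -0.82 ± 0.16 at 4 hr (limma, adjusted p = 0.00143) and -0.04 ± 0.16 after 8 hr (adjusted p = 0.871). Usp9x, a large enzyme of endosomal sorting and cell polarity, rose by 0.54 at 4 hr (limma, adjusted p = 0.00444), where WT replicate 2 stood at 8.31 and the other 3 libraries at 7.63 to 7.88. Usp8 was at -0.04 at 4 hr (95% confidence interval -0.19 to 0.10) and Usp30 of the mitochondrial outer membrane at -0.12, neither called.

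Usp53, Usp54 and Usp39 have been held to lack catalytic activity, or to have little of it. Usp53, a protein of cell junctions on chromosome 3 (122931493 to 122984510, minus strand), was at 2.45, 2.59, 2.63 and 2.64 log2 CPM at 0 hr, 3.48, 3.84, 3.79 and 4.05 after 4 hr of LPS and 3.57, 3.69, 4.28 and 4.21 after 8 hr. The 8 stimulated libraries lay above the others, and the 2 S513A libraries at 8 hr were the highest of all. Usp53 changed by 1.21 ± 0.11 at 4 hr (limma, adjusted p = 5.06e-06) and 1.36 ± 0.11 after 8 hr (adjusted p = 2.57e-06), from 70 reads in its lowest library to 224 in its highest. Usp39, a splicing factor, was at 0.25 at 4 hr (limma, adjusted p = 0.0756) and rose by 0.38 after 8 hr (adjusted p = 0.0172).

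Of the 5 members of the proteasome and of ubiquitin recycling, Usp14, which is bound to the proteasome, rose by 0.22 at 4 hr (limma, adjusted p = 0.0159), and Uchl3 fell by 0.44 (adjusted p = 0.0386). Uchl3 went from 3.04 to 2.88 log2 CPM in WT and from 3.41 to 2.70 in S513A, and taken by genotype it was called in S513A only. The difference between genotypes was not called, and the call of Uchl3 in the mean held in 12 of the 21 alternative fits. With quantile normalization the change of Usp14 was at -0.002. At 8 hr 0 of the 5 were called by limma, with or without voom weights. An unadjusted p under 0.05 was seen for 1, Uchl1, at 0.54 (adjusted p = 0.0585 in limma), which was called as higher with quantile normalization.

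In the remaining group of 4, Usp40, Usp34 and Otud6b rose at 4 hr and Usp35, linked to mitochondrial quality control, fell. Usp35 lies on chromosome 7 (97309380 to 97332020, minus strand), and 18 to 106 reads a library fell on it. It was at 2.89, 2.97, 2.55 and 2.48 log2 CPM at 0 hr, 1.76, 2.30, 1.68 and 1.10 after 4 hr of LPS and 2.97, 2.35, 2.96 and 3.01 after 8 hr. The libraries at 4 hr lay below all others, with -1.01 ± 0.19 at 4 hr (limma, adjusted p = 0.000898) and 0.10 ± 0.19 after 8 hr (adjusted p = 0.686). Usp40, whose exons overlap those of Dgkd, rose by 0.49 at 4 hr and by 0.48 after 8 hr (limma, adjusted p = 0.00211 and 0.00342). Several small changes at 4 hr passed the threshold in a minority of the 21 alternative fits: Usp32 (0.35) in 5, Otud6b (0.21) in 7 and Usp34 (0.36) in 9.

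**Figure D3:**
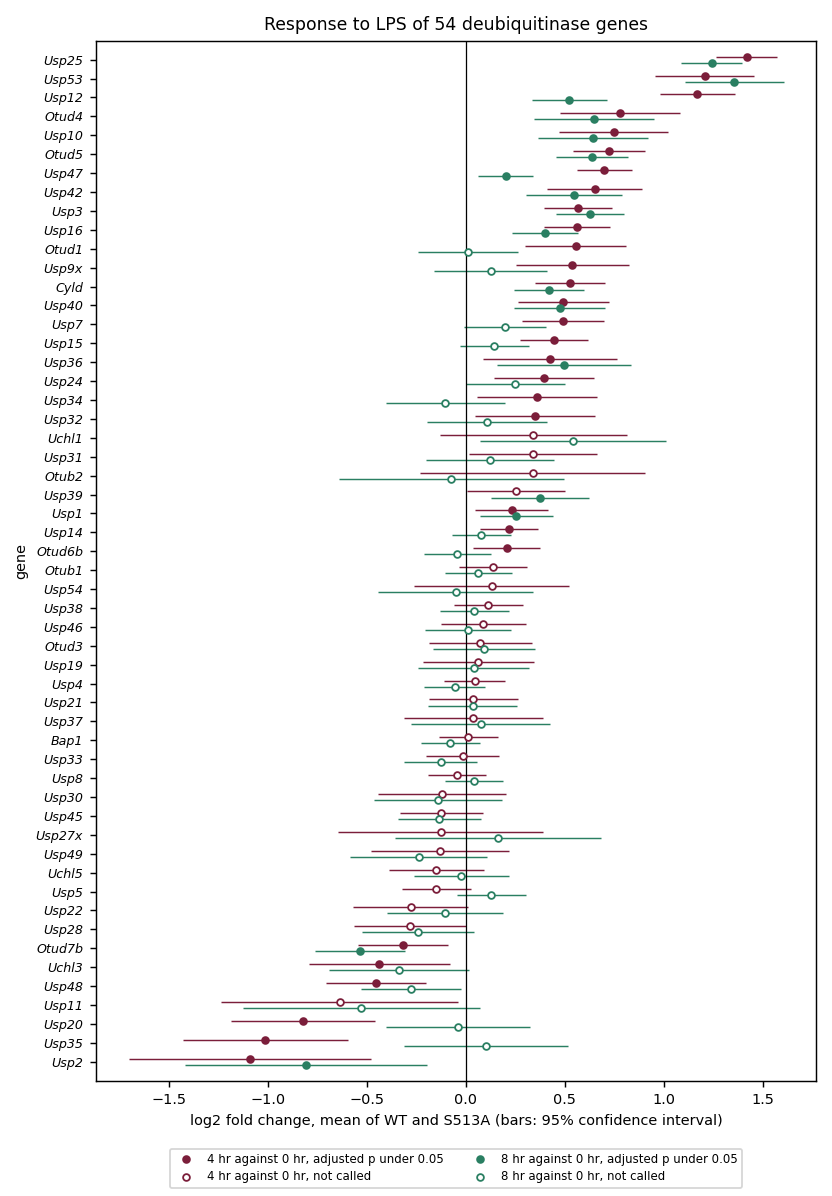
Log2 fold change of each of the 54 members at 4 hr (dark red) and 8 hr (green) against 0 hr, as the mean of WT and S513A (4 libraries against 4), with bars for 95% confidence intervals and filled points for an adjusted p under 0.05 (limma). Filled points at 4 hr reach from -1.09 (Usp2) to 1.42 (Usp25), and those at 8 hr from -0.81 (Usp2) to 1.36 (Usp53).

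Between 4 and 8 hr 8 members fell and 3 rose, 20.4% of the family against 25.6% of all genes tested (limma). Of the family 14.8% fell and 5.56% rose, against 12.8% of all genes in either direction. With quantile normalization 4 fell and 3 rose, and the higher share of the called went from 27.3% to 42.9%. Each of the 8, namely Usp12, Otud1, Usp47, Usp34, Usp9x, Usp15, Usp7 and Otud6b, had risen by 4 hr. Of the 3 that rose, Usp35 (1.11 ± 0.19, adjusted p = 0.00164) and Usp20 (0.78 ± 0.16, adjusted p = 0.00557) had fallen by 4 hr. Usp5 rose by 0.28 from 4 to 8 hr (limma, adjusted p = 0.0264), from 6.66 to 6.91 log2 CPM in the libraries at 4 hr to 7.03 to 7.24 at 8 hr, with no overlap. The 4 hr libraries enter both comparisons with opposite sign, so these counts are not independent. Usp12 fell by 0.65 ± 0.09 (limma, adjusted p = 0.00037) and Usp47 by 0.50 ± 0.06 (adjusted p = 0.000294), whereas Usp25 was at -0.18 (adjusted p = 0.0882) and Usp53 at 0.15 (adjusted p = 0.377).

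By genotype, the median change of the members from 4 to 8 hr was -0.18 in WT (all genes 0.02), with 13 of 54 above 0. In S513A it was 0.07 (all genes -0.02), with 32 of 54 above 0. The share of all genes above 0 was not counted, and the difference between genotypes in this change was not tested. The WT value rests on the 4 hr pair of libraries that stood furthest apart. By limma 5 members fell in WT (Otud1, Usp12, Usp34, Usp47 and Usp9x) and 0 rose, against 14.2% of all genes called, 7.49% lower and 6.73% higher, with 3 higher at an unadjusted p under 0.05 and 0 higher with voom weights. In S513A Usp12, Usp15 and Usp47 fell and Usp20 and Usp35 rose, against 18.3% of all genes called, 8.99% lower and 9.31% higher. The 5 calls in WT became 0 with only the libraries compared, 16 without WT replicate 1 at 4 hr and 2 without WT replicate 2 at 4 hr or either WT library at 8 hr. The 5 in S513A became 2 with only the libraries compared or without S513A replicate 2 at 4 hr, and 3 without S513A replicate 1 at 8 hr.

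Taken by genotype, 15 members rose and 3 fell at 4 hr in WT (33.3% called, 41.3% of all genes, of which 22.6% higher and 18.7% lower). In S513A 16 rose and 5 fell (38.9%, all genes 43.2%, with 23.1% higher and 20.2% lower). The same 15 members rose in both genotypes, all of those in WT and 15 of the 16 in S513A, and Usp20, Usp35 and Usp48 fell in both. How many of all genes were called in both genotypes was not counted. These overlaps and those at 8 hr therefore do not set the members apart from other genes. At 8 hr 9 rose and 4 fell in WT (24.1%, all genes 34.3%, with 19.4% higher and 14.9% lower). In S513A 14 rose and 2 fell (29.6%, all genes 39.9%, with 20.9% higher and 19% lower). Higher in both at 8 hr were Cyld, Otud5, Usp3, Usp10, Usp12, Usp16, Usp25 and Usp53, which are 8 of the 9 in WT and 8 of the 14 in S513A. No lower call was shared at 8 hr: Otud7b, Usp2, Usp11 and Usp49 were lower in WT, and Uchl3 and Uchl5 in S513A. Otud7b and Usp2, lower in the mean over genotypes, were at -0.69 and -1.29 in WT (limma, adjusted p = 0.00411 and 0.0266) and at -0.38 and -0.32 in S513A (adjusted p = 0.0569 and 0.542). For both the difference between genotypes in this response did not pass the threshold (limma, adjusted p = 0.387 and 0.317).

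Whether the S513A allele shifted the members was asked at each time point, with 2 libraries against 2. A point substitution leaves the level of its transcript free to vary, so the genotype labels were not checked from expression. By limma 0 members were called at 0, 4 or 8 hr or in the mean over times, against 0.0337%, 0.0168%, 0.0337% and 0.0673% of all genes, and 0 in the difference between genotypes in the response at 4 or 8 hr, against 0% of all genes. Voom weights gave 0 calls in each of these as well. Unadjusted p values under 0.05 were found for 3 members (5.56%) in unstimulated cells, 3 after 4 hr, 10 (18.5%) after 8 hr and 6 (11.1%) in the mean, against 7.98%, 7.01%, 12.5% and 6.71% of all genes. In the responses they were found for 0 members at 4 hr and for 10 at 8 hr, against 1.21% and 20.2% of all genes. The 95% confidence interval lay within a 2-fold change in either direction for 48 members in unstimulated cells, 49 after 4 hr and 51 after 8 hr, and for the others it reached beyond that size. For the difference between genotypes in the response it lay within 2-fold for 46 members at 4 hr and for only 35 of 54 at 8 hr.

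At 8 hr the S513A minus WT difference was above 0 for 43 of the 54 members, with a median of 0.16 against 0.01 over all genes. At 0 and 4 hr 21 and 20 members were above 0 and the medians were -0.09 and -0.10. The share of all genes above 0 was not counted at any time. Members are not independent replicates, so these counts are no test of the family. The 2 S513A libraries lay above both WT libraries for 25 members at 8 hr (46.3%, all genes 27.9%) and below them for 5. In unstimulated cells they lay above for 14 members and below for 22 (40.7%), and at 4 hr above for 7 and below for 9. The shares of all genes are not given for these other counts, so a separation of the genotypes is not particular to 8 hr. Usp11, a relative of Usp4 and Usp15 with 15 to 60 reads a library, differed most at 8 hr, at 0.96 and 0.56 log2 CPM in WT and 2.09 and 1.63 in S513A. Its difference was 1.10 (95% confidence interval 0.25 to 1.94, limma, adjusted p = 0.395). Usp53 differed by 0.61 at 8 hr (0.25 to 0.96, adjusted p = 0.395 with limma), after 0.11 at 0 hr and 0.26 at 4 hr. Others with an unadjusted p under 0.05 were Usp42 at 0.51, Otud1 at 0.50, Usp12 and Usp40 at 0.34, Usp25 at 0.30, Usp33 at 0.27 and Usp47 at 0.20, with adjusted p values of 0.395 to 0.398 in limma. Usp2 at 0.55 and Usp49 and Usp31 at 0.43 did not reach an unadjusted p of 0.05. In the opposite direction Uchl5, a proteasome-bound hydrolase, was lower in S513A at 8 hr, at 4.57 and 4.76 against 5.05 and 5.09 log2 CPM in WT, but higher at 0 hr, at 5.23 and 4.93 against 4.64 and 4.74. Its response at 8 hr differed between genotypes by -0.80 (95% confidence interval -1.29 to -0.32, limma, adjusted p = 0.193).

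**Figure D4:**
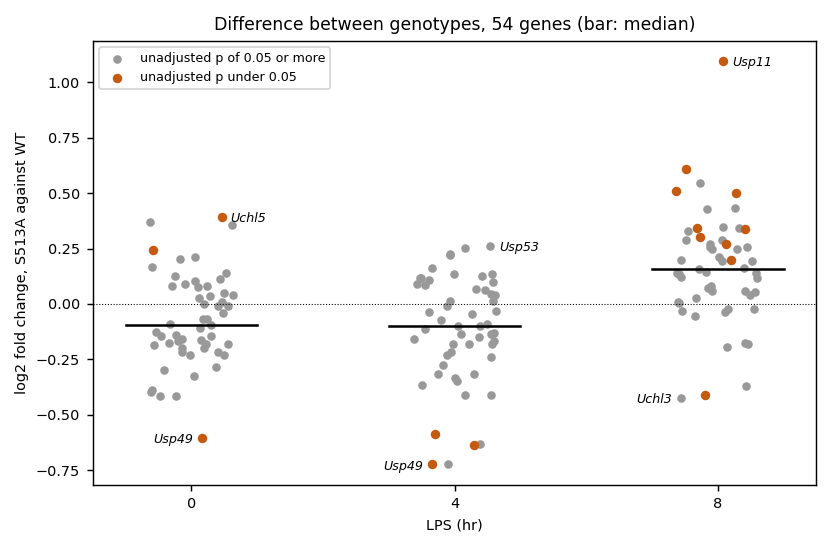
Log2 fold change between S513A and WT (2 libraries against 2) for each of the 54 members (points, spread sideways for legibility) at 0, 4 and 8 hr of LPS, with a bar at the median and the highest and lowest members named; orange points have an unadjusted p under 0.05 in limma. The medians are -0.09, -0.10 and 0.16, and no point has an adjusted p under 0.05.

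Members that are close relatives were set against each other within each library, as the log2 ratio of their CPM, which cancels the scaling of the library. The ratio of Usp25 to Usp28, its nearest relative, was 3.25 ± 0.13 (SD, n = 4) at 0 hr, 4.95 ± 0.29 at 4 hr and 4.74 ± 0.14 at 8 hr. Usp28, known for stabilising MYC, was itself at -0.28 at 4 hr, not called. The ratio of Usp12 to Usp46, which share UAF1 as a partner, went from 2.64 ± 0.15 to 3.72 ± 0.22 at 4 hr and 3.15 ± 0.29 at 8 hr. Usp53 to Usp54 went from -0.02 ± 0.31 to 1.06 ± 0.60 and 1.39 ± 0.47, and Usp16 to Usp45 from 0.31 ± 0.18 to 1.00 ± 0.14 and 0.84 ± 0.20. Usp20 to Usp33, both binders of the VHL tumour suppressor, went from -2.06 ± 0.16 to -2.87 ± 0.29 at 4 hr and back to -1.98 ± 0.26 at 8 hr. Usp15 to Usp4 shifted by 0.40 at 4 hr and 0.20 at 8 hr.

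The 4 libraries at 4 hr lay wholly outside the range of the 4 at 0 hr for these 6 pairs, which gives p = 0.0286 in a two-sided exact permutation test, the smallest that 4 against 4 allows. The share of other gene pairs that separate so was not counted. Of single genes, 25.7% lay wholly above and 23.4% wholly below at 4 hr. Each of the 6 pairs holds a member already called at 4 hr, so the ratios in part repeat those calls. Over the 18 tests of 9 pairs at 2 times the Benjamini-Hochberg value of these exact tests was 0.0514, so that none passed 0.05. The other pairs at 4 hr overlapped, with p = 0.0571 for Usp15 to Usp11 and 0.0857 for both Usp4 to Usp11 and Usp47 to Usp7 in the exact test. At 8 hr Usp25 to Usp28, Usp53 to Usp54, Usp15 to Usp4 and Usp16 to Usp45 did not overlap with 0 hr. Members that enter more than 1 pair (Usp4, Usp11 and Usp15) make these tests dependent.

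**Figure D5:**
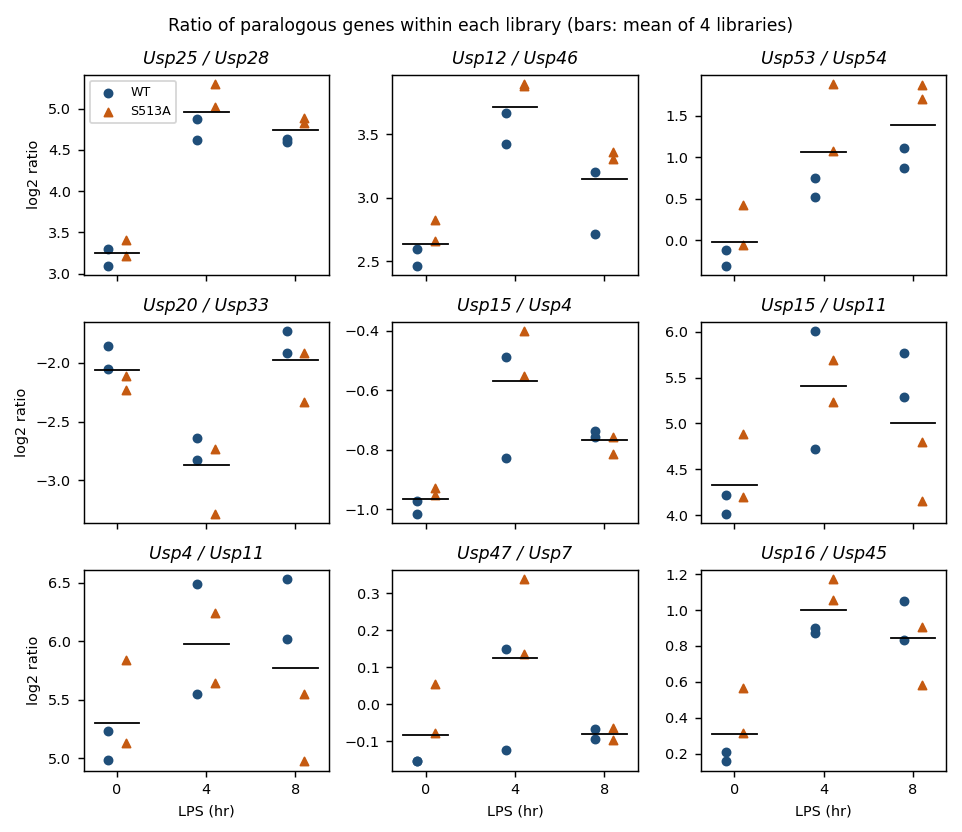
Log2 ratio of the CPM of 9 pairs of related members in each library (circles for WT, triangles for S513A) at 0, 4 and 8 hr of LPS, with bars at the mean of 4 libraries and a separate vertical range in each panel. The mean of Usp25 / Usp28 is 3.25 at 0 hr and 4.95 at 4 hr, and that of Usp20 / Usp33 is -2.06 and -2.87, with no overlap between the libraries of 0 and 4 hr.

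Genes around the members were read in the same fit. Of 20 deubiquitinases of other families or left out by the rule, 7 rose and 4 fell at 4 hr (limma, 55% called against 55.8% of all genes), led by Usp18, the interferon-induced ISG15 protease (4.49), Tnfaip3, which encodes A20 (2.18), and Vcpip1 (0.91), and on the lower side by Mindy4 (-1.18), Mindy2 (-0.81) and Mindy1 (-0.79). At 8 hr 5 rose and 4 fell (45% called, all genes 46.1%). No member reached the change of Usp18 or Tnfaip3. Of 17 partner proteins of the members 8 rose and 1 fell at 4 hr (52.9% called, all genes 55.8%). The changes were 0.71 for Adrm1, the proteasome receptor of Uchl5, 0.69 for Ube2n, which encodes UBC13, and 0.63 for Atxn7 of the SAGA module. Foxk1, a partner of Bap1, was at -0.76. Among the 17 partners 7 rose and 0 fell at 8 hr (41.2% called), against 46.1% of all genes, 24.5% higher and 21.6% lower. On the lower side at 8 hr 0 partners had an unadjusted p under 0.05 in limma, and 0 were called with voom weights. Wdr48, which encodes UAF1, the partner of Usp1, Usp12 and Usp46, rose by 0.55 at 4 hr (limma, adjusted p = 4.9e-05).

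Of 16 ubiquitin ligases and adaptors of Toll-like receptor 4 signalling, 10 rose and 2 fell at 4 hr by limma (75.0% called, all genes 55.8%). After 8 hr 8 rose and 1 fell (56.3% called, all genes 46.1%). At 4 hr Peli1 was at 3.13, Birc3 at 1.55 and Traf2 at 1.46, and Peli2 at -1.82 and Tab1 at -0.34. The 6 LPS response genes taken as a check of stimulation all rose at both times, Il6 by 8.65, Il1b by 8.31 and Ptgs2 by 7.44 at 4 hr.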

How the data were processed

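The authors mapped reads to the mouse genome (mm10) with HISAT2, unstranded, and counted them with featureCounts 1.6.3. The deposited values are log2 CPM, each the log2 of the reads plus 0.5 over an effective library size. Whole reads were recovered from them within 0.01. The program behind this scaling, the gene annotation and the filter are not given in the sources used here.

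Differences were tested on the deposited log2 CPM with limma 3.58.1 (R 4.3.3), fitting 1 mean per group (6 groups, 6 residual degrees of freedom) with empirical Bayes moderation that follows the mean level. The filter on low values, 1 CPM in 2 or more libraries, left 11885 genes, tests were two-sided, and p values were Benjamini-Hochberg adjusted over all of them. Levels per kb used summed exon lengths of GENCODE genes on GRCm38, which matched all 54 members. Exons of 10 members overlap another protein-coding gene, which unstranded counts cannot separate. Ratios of relatives were compared with exact permutation tests (scipy 1.17.1). At the depth of these libraries 3 reads correspond to a log2 CPM of -2.04 to -1.30, counting error only.

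Members called with a change of at least 1.5-fold at 4 or 8 hr were described in full (12), others as the most changed of their role group, and companion genes as the 3 largest called changes in each direction, with Wdr48 and members below the threshold chosen after their values were seen. The members and all gene lists were chosen with earlier results of these data known. Alternatives were no filter, a filter at a mean of 5 CPM, 1 CPM added, median-ratio and quantile scaling, a replicate block, a prior without trend, voom weights on the recovered reads, only the libraries compared, and each of 12 libraries left out.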

Additional observations from a re-analysis of the deposited data

Results flagged for a closer look

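For 11 members the response to LPS differed between 8 and 4 hr by a test of the difference itself (limma, Benjamini-Hochberg adjusted p under 0.05, 4 libraries against 4), and 25.6% of all genes tested did so too. The difference on the log2 scale, 8 hr minus 4 hr, was 1.11 for Usp35, 0.78 for Usp20 and 0.28 for Usp5. It was -0.65 for Usp12, -0.54 for Otud1, -0.50 for Usp47, -0.46 for Usp34, -0.41 for Usp9x, -0.30 for Usp15, -0.29 for Usp7 and -0.25 for Otud6b. The calls for Otud6b, Usp7 and Usp9x held in 7, 8 and 9 of the 21 alternative fits, and Usp9x rests in part on WT replicate 2 at 4 hr, the library with the highest level of it. Both comparisons with 0 hr share the unstimulated libraries, and the size of the difference between 8 and 4 hr does not use them. Its p values do, because the spread was estimated from all 12 libraries.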

How the results depend on the processing

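The counts of members called at 4 hr (29) and 8 hr (17) against 0 hr stayed within 1.5 times under all alternatives run, at 22 to 28 and 13 to 21 with 1 library left out, and at 28 for 4 hr without WT replicate 2 at 4 hr. The 11 calls between 8 and 4 hr became 7 with quantile normalization and 5 with only the libraries compared, and 5 to 13 with 1 library left out: 5 and 6 without WT 8 hr replicates 1 and 2, and 7 without S513A 4 hr replicate 1 or either S513A library at 8 hr. In WT at 8 hr the 13 calls became 21 with only the libraries compared, and 5 to 19 with 1 library left out, with 7 and 5 without WT 0 hr replicates 1 and 2, and 6 and 5 without WT 8 hr replicates 1 and 2. In S513A the counts were 13 to 25 at 4 hr, lowest without S513A 0 hr replicate 2, and 10 to 22 at 8 hr, lowest without S513A 8 hr replicate 1. In WT at 4 hr they were 12 to 19. Fits without a library have fewer samples. Between genotypes 1 member was called at 0 hr with only the libraries compared (Usp19, -0.39, limma, adjusted p = 0.0431), in a fit that called 693 of 11885 genes (5.83%), and the response at 8 hr gave 0 to 1 with a library left out, the 1 being Uchl3 without S513A 8 hr replicate 2 (-1.16, limma, adjusted p = 0.0374), in a fit that called 651 genes (5.48%). The cause of these moves was not tested. Of 502 alternative values for the 24 changes of the 12 members described in full, 487 kept their direction and side of the threshold and 13 lost the call (Usp2 and Usp47 at 8 hr). The other 2, not called in any of these fits, changed sign at 8 hr: Usp35 (0.10) was at -0.051 without WT 8 hr replicate 1, in a range of -0.051 to 0.258 with 1 library left out, and Usp20 (-0.04) at 0.043 without S513A 8 hr replicate 2, in a range of -0.119 to 0.043.

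The deviations of equally numbered libraries correlated from -0.75 (WT 4 hr with S513A 8 hr) to 0.76 (S513A 4 hr with S513A 8 hr) over 8353 genes. Replicate numbers thus gave no single pairing over all groups. Some groups did share variation between their replicates, in the same or in the opposite direction, and its source was not tested. With a replicate block 29 members were called at 4 hr, 18 at 8 hr and 10 between 8 and 4 hr, and 0 between genotypes. The stricter filter left out Otub2, Usp2, Usp11, Usp27x and Usp49. At 8 to 55 reads a library for Usp2 and 15 to 60 for Usp11, counting error adds to the spread, and 2 libraries a group limit what could be detected between genotypes.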
